A study of Homo sapiens with 4 samples.

Results

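The aminoacyl-tRNA synthetases and the scaffold proteins that hold some of them together were examined in Huh7 cells with and without METTL16 KO. The members were 39 gene symbols chosen by name, in the older nomenclature of the expression table (LARS for LARS1, for example). Of these, 38 were found in the table of 18806 genes, and all 38 reached the minimum level for testing, as did 11971 genes in all. They comprise 20 genes for cytosolic synthetases, 15 for mitochondrial synthetases (symbols ending in 2) and 3 for scaffold proteins. VARS2 was not analysed here.

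Each aminoacyl-tRNA synthetase joins an amino acid to its cognate tRNAs, so that the genetic code is read at this step, before the charged tRNA reaches the ribosome. Mammalian cells keep a cytosolic and a mitochondrial set, nearly all of them encoded by separate nuclear genes. GARS and KARS serve both compartments from the same gene. The enzymes fall into structural classes I and II, which differ in the fold of the catalytic domain. Several cytosolic enzymes sit in a multi-synthetase complex assembled on the scaffold proteins AIMP1, AIMP2 and EEF1E1.

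Huh7 is a human hepatocellular carcinoma (HCC) line. A single clone expressing Cas9 was infected with lentivirus for a guide RNA and kept under hygromycin B, which all 4 libraries share. The 2 sgNS libraries (non-targeting guide, genotype given as WT) were compared with the 2 METTL16 KO libraries (sgMETTL16, genotype given as knockdown in the labels). The final number in each title was taken as the replicate, 2 per group, since the study states that RNA samples had biological replicates. The study also used 2 distinct METTL16 guides, and whether the numbers mark cultures of 1 guide or different guides is not given in the sources used here. If they mark guides, the spread within METTL16 KO includes the difference between guides. How replicates were separated is likewise not given, and p-values measure only the spread between these libraries, which may be technical. Levels are given in TPM, in which reads are divided by transcript length and then by the library total, so that genes may be compared with each other. The depth behind them is unknown, as TPM keep no read counts.

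The targeted gene was listed at 26.3 and 25.1 TPM in sgNS against 17.6 and 18.8 TPM after METTL16 KO (log2 fold change -0.50, SE 0.062), so that most of the transcript remained. An RNA level after cutting by Cas9 does not by itself show how much protein was lost. All 10 hepatocyte markers looked for were present, and their sum was 19433 and 19501 TPM in sgNS against 32726 and 32258 TPM in METTL16 KO. Most of that rise was in AFP, with 1737 and 1793 TPM against 10387 and 10197 TPM, while TF and APOB fell by 0.43 and 0.17 on the log2 scale and AHSG did not pass (log2 fold change -0.014). Of 12 markers of leukocytes, endothelium and stroma, 7 stayed under 1 TPM in each library. Nearly all of the summed level of those 12, which was 1522 and 1564 TPM in sgNS and 925 and 938 TPM in METTL16 KO, came from LYZ, whereas CD68 rose from 3.40 and 2.72 TPM to 8.86 and 8.57 TPM, and VWF and DCN did not pass 0.05 TPM. What these shifts contributed to the results below was not tested, and in bulk RNA a change per cell cannot be told apart from a change in the share of cells. Differences were tested on log2(TPM + 0.1) with limma, and p-values were adjusted over all genes tested by the Benjamini-Hochberg method. The median gene had a log2 fold change of 0.16, to which each value below should be compared, and scaling the libraries to a common median takes about that amount from every gene.

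Of the 38 members, 11 fell, 25 rose and 2 did not pass an adjusted p of 0.05. The same threshold was passed downwards by 25.6% and upwards by 50.1% of all genes tested, on the deposited scale. With median-ratio scaling 13 members were lower and 9 higher, against 36.5% and 36.4% of all genes, and with quantile normalization 12 were lower and 10 higher, against 35.4% and 37.1%, so whether the share of members that rose lies above or below the background depends on the scaling. With a fold of at least 1.5 added, 4 members fell (LARS, IARS, VARS and SARS2) and 1 rose (WARS), against 9.59% and 19.5% of all genes. In 38 of 38 members the groups did not overlap, as in 87.4% of genes tested. In the cytosolic set 9 of 20 synthetases fell and 10 rose (median log2 fold change 0.10). In the mitochondrial set 2 of 15 fell and 12 rose (median 0.25), and in the scaffold group 3 of 3 genes rose. The difference between the sets was not tested.

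**Figure D1:**
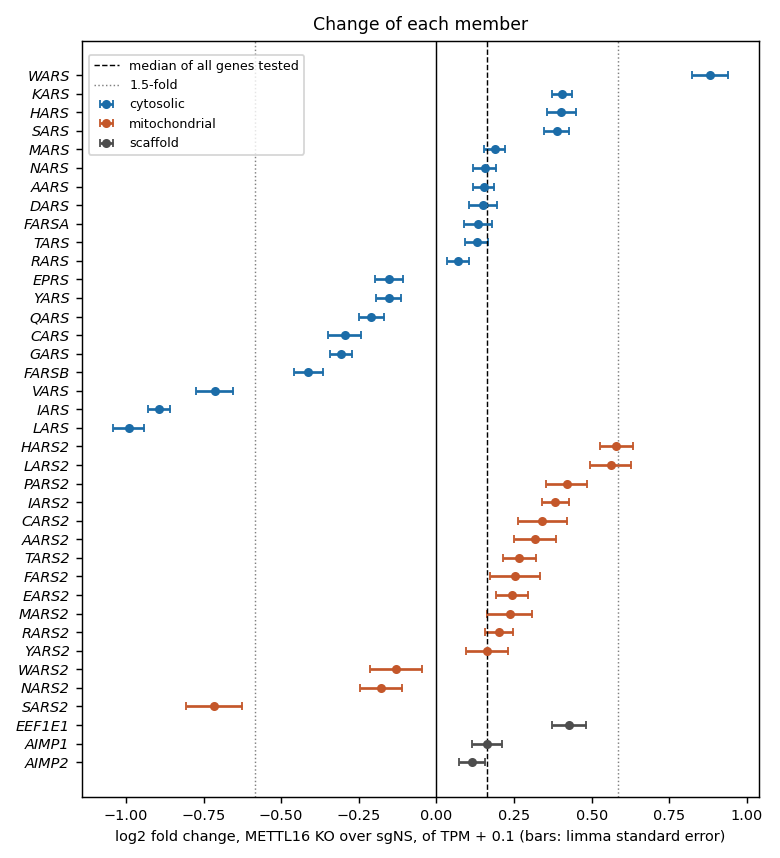
Log2 fold change of each member, METTL16 KO over sgNS, with limma's standard error; the dashed line is the median of all genes tested (0.16), the solid line is 0 and the dotted lines mark 1.5-fold. LARS, IARS, VARS and SARS2 lie left of the lower dotted line and WARS right of the upper one, and most mitochondrial members lie right of the median.

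The steepest falls among the cytosolic enzymes were in LARS, IARS and VARS, which charge the tRNAs of leucine, isoleucine and valine. These enzymes are close relatives within class I and carry an editing domain that removes wrongly attached amino acids. In the sgNS libraries LARS had 53.0 and 55.1 TPM, and METTL16 KO left 27.2 and 27.1 TPM, or 50.2% of the sgNS mean (log2 fold change -0.99, SE 0.050, adjusted p from limma 2.1e-08). IARS went from 243 and 241 TPM to 132 and 129 TPM (log2 fold change -0.89, SE 0.035, adjusted p from limma 3.0e-09). VARS dropped from 76.4 and 67.1 TPM to 43.7 and 43.6 TPM (log2 fold change -0.71, SE 0.060, adjusted p from limma 1.1e-06). The replicates lay close together in all 3 genes, except in the sgNS group of VARS, and no METTL16 KO value reached the lower sgNS value of its gene. Among all genes tested, the fold changes of LARS, IARS and VARS stood at percentiles 3.84, 4.74 and 7.34. Grouping these genes by the branched-chain amino acids they serve was done after their values were seen.

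On GRCh38, LARS occupies chr5:146110566-146182696, IARS chr9:92210207-92293854 and VARS chr6:31777518-31795752, all on the minus strand. IARS was the fourth most abundant of the 20 cytosolic synthetases in sgNS and ranked 8 in METTL16 KO. LARS moved from rank 17 to rank 20. The bases before the start site of IARS are shown because it had the largest fall among members with a promoter window in the sequence tables used (RefSeq, GRCh38.p14), which held windows for 33 of the 39 members. They run from 5′ to 3′ on the minus strand over chr9:92293698-92293947. An E-box (CACGTG, the site bound by MYC and related factors) and the core of an amino acid response element are in capitals. The latter stands as TTGCATCA, which reads TGATGCAA on the other strand. The start site is that of RefSeq, whereas the gene span given above is from GENCODE and reaches 92293854. Part of the window, with the response element core, thus lies inside that span.
IARS: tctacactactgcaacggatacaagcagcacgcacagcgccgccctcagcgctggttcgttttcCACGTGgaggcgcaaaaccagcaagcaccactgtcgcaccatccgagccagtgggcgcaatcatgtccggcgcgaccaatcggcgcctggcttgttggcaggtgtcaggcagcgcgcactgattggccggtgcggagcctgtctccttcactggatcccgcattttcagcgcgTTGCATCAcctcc

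The amino acid response element binds ATF4 together with C/EBP-family partners and is known from synthetase genes. Its core was searched as TGATGNAA on both strands, in windows from 250 bases before to 50 after a start site, and none of its matches in the members overlapped a match of the other motifs searched. It was found in 8 of the 33 members with a window (24.2%), compared with 4.46% of all 27305 genes in the tables. These 8 comprised 7 of 16 cytosolic and 1 of 14 mitochondrial members. The stretches are given on the strand where the core reads as searched, with the core in capitals.
IARS at chr9:92293692-92293721, plus strand: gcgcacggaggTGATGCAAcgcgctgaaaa
GARS at chr7:30594834-30594863, minus strand: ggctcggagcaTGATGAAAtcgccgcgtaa
CARS at chr11:3057407-3057436, plus strand: ttcctagaatcTGATGCAAccgccgccccg
AARS at chr16:70289675-70289704, plus strand: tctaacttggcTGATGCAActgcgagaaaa
MARS at chr12:57488053-57488082, minus strand: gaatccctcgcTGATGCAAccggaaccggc
NARS at chr18:57621804-57621833, minus strand: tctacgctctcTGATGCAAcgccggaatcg
TARS at chr5:33440956-33440985, minus strand: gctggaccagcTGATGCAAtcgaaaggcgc
YARS2 at chr12:32756076-32756105, minus strand: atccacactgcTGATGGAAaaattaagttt
Of these genes, IARS, GARS and CARS fell, while AARS, MARS, NARS, TARS and YARS2 rose on the deposited scale. On that scale 25.6% of all genes tested were lower and 50.1% higher, and these rises lay near the median gene (0.16). With median-ratio scaling IARS, GARS and CARS stayed lower. None of the rises then passed, with MARS at 0.021 and AARS, NARS, TARS and YARS2 slightly negative. Whether members sharing the core moved in both directions thus depends on the scaling. The core begins next to a RefSeq start site in 5 of these genes, at bases -13 in IARS, -4 in MARS, -2 in CARS, 3 in TARS and 15 in NARS. Their log2 fold changes were -0.89, 0.19, -0.30, 0.13 and 0.15 in that order. IARS and CARS fell, while the other 3 rose on the deposited scale but did not pass with median-ratio scaling. The E-box was found in 5 of 33 members (IARS, AIMP2, CARS2, EARS2 and MARS2), or 15.2%, compared with 8.77% of all genes. Of these 5, IARS fell and the others rose on the deposited scale. None of those rises passed with median-ratio scaling, where AIMP2 turned negative. The motifs were chosen after the values were seen.

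Smaller falls were seen in 6 other cytosolic synthetases. FARSB, which encodes the beta subunit of phenylalanyl-tRNA synthetase, went from 60.6 and 61.8 TPM down to 47.1 and 44.8 TPM (log2 fold change -0.41, SE 0.047, adjusted p from limma 1.3e-05). FARSA encodes the alpha subunit of the same enzyme and had 118.8 and 108.6 TPM against 123.6 and 125.7 TPM (log2 fold change 0.13). Its ratio to FARSB thus went from 1.96 and 1.76 to 2.63 and 2.80, a shift that a common factor per library leaves as it is. GARS, for glycine, had 235 and 244 TPM against 195 and 192 TPM (log2 fold change -0.31, SE 0.035). CARS, for cysteine, had 33.3 and 33.5 TPM against 26.7 and 27.6 TPM (log2 fold change -0.30). QARS, for glutamine, went from 113.1 and 113.0 TPM to 99.9 and 95.7 TPM (log2 fold change -0.21). In these genes every METTL16 KO library lay below both sgNS libraries. YARS, for tyrosine, had 117.7 and 114.0 TPM against 105.6 and 102.7 TPM (log2 fold change -0.15). EPRS, a fused enzyme for glutamate and proline, had a log2 fold change of -0.15, with 127 and 129 TPM against 120.2 and 110.7 TPM. The groups of EPRS were separated by less than the spread between its METTL16 KO replicates, and the call was lost without METTL16 KO replicate 2 (log2 fold change -0.093, adjusted p from limma 0.16), as was that of YARS (-0.13, adjusted p 0.071). EPRS also did not pass with limma without trend (adjusted p 0.072).

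WARS, for tryptophan, showed the only rise past 1.5-fold among the members. Its sgNS values of 24.7 and 24.4 TPM were the lowest of the cytosolic set, and METTL16 KO brought it to 47.4 and 43.3 TPM. The log2 fold change was 0.88 (SE 0.058, adjusted p from limma 1.6e-07), at percentile 90.2 of all genes. Both METTL16 KO values lay well above the sgNS values, although they differed more from each other than the sgNS pair did. WARS is known as a gene induced by interferon. It occupies chr14:100333790-100376805 on the minus strand of GRCh38, and RefSeq lists 2 windows for it. The bases before the downstream start site, chr14:100375348-100375597 on the minus strand, are shown because they hold the core of an interferon-stimulated response element, searched on both strands as GAAA followed after any 2 bases by GAAA and printed in capitals.
WARS: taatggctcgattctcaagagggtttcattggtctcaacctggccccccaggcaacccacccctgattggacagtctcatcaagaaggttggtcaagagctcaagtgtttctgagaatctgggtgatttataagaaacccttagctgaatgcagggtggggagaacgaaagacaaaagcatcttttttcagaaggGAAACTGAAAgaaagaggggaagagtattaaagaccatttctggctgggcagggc
This core was found in 4.38% of all genes in the tables and in 2 of the 33 members, WARS and EARS2. In WARS it starts at base -55. A match of letters is a description of the window and says nothing of binding in these cells.

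Rises of lesser size that held under every scaling were found in KARS, HARS and SARS. KARS, for lysine, was the most abundant member and went from 275 and 283 TPM to 369 and 370 TPM (log2 fold change 0.40, SE 0.031, adjusted p from limma 6.4e-07). Its groups were far apart relative to the replicates. GARS, the other synthetase gene that serves both compartments, moved the opposite way. HARS, for histidine, had 41.4 and 41.7 TPM against 55.3 and 54.6 TPM (log2 fold change 0.40), and SARS, for serine, had 81.8 and 79.6 TPM against 105.8 and 105.3 TPM (log2 fold change 0.39). The remaining cytosolic genes, AARS, DARS, FARSA, MARS, NARS, RARS and TARS, had log2 fold changes from 0.069 to 0.19, close to the median gene, and all of them but MARS turned slightly negative with median-ratio scaling, where MARS was at 0.021. AARS, for alanine, was the most abundant of these, with 267 and 255 TPM in sgNS and 292 and 287 TPM after METTL16 KO. MARS, for methionine, had 253 and 243 TPM against 284 and 280.2 TPM. The groups of both lay apart by more than the replicates of either group. RARS, for arginine, had 159 and 161 TPM against 168 and 168 TPM and did not pass the test (adjusted p from limma 0.089), while with median-ratio scaling it passed as lower, at -0.096 (adjusted p 0.029). NARS, for asparagine, had 129 and 132 TPM against 146 and 145 TPM, and TARS, for threonine, 137 and 142 TPM against 155 and 150.4 TPM. DARS, for aspartate, had 66.0 and 68.3 TPM against 76.3 and 72.8 TPM. Calls were lost for DARS and TARS without METTL16 KO replicate 1 (0.12 and 0.11) and for FARSA without METTL16 KO replicate 1 (0.15), METTL16 KO replicate 2 (0.12) or sgNS replicate 2 (0.069). On the opposite strand MARS shares 519 exon bases, 7.38% of its own, with ARHGAP9 and 355, or 5.05%, with DDIT3. DDIT3 had 30.7 and 32.1 TPM against 72.7 and 77.8 TPM. Whether strand was used in quantification is not given in the sources used here.

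Sorted by structural class, 6 of 9 cytosolic class I genes fell, 2 rose (MARS and WARS) and RARS did not pass (median log2 fold change -0.21). Among the 10 cytosolic class II genes, 2 fell (FARSB and GARS) and 8 rose, with a median of 0.15, while EPRS holds catalytic domains of both classes. In the mitochondrial set the medians were 0.24 for 8 class I and 0.27 for 7 class II genes. Of all genes tested, 25.6% were lower and 50.1% higher. With median-ratio scaling, KARS, HARS and SARS were the 3 cytosolic class II genes that stayed higher, WARS was the only higher cytosolic class I gene, and RARS was lower, while 4 mitochondrial genes stayed higher, IARS2 and LARS2 of class I and HARS2 and PARS2 of class II. These counts and medians describe the lists and were not tested. With respect to the multi-synthetase complex, 4 of its 8 synthetases fell (EPRS, IARS, LARS and QARS) and 3 rose (DARS, KARS and MARS), of which KARS alone stayed higher with median-ratio scaling. Of the 12 genes outside the complex, in which FARSA and FARSB are counted apart, 5 fell and 7 rose, the latter a share near the background of 50.1%. Among those that rose, only HARS, SARS and WARS stayed higher with median-ratio scaling.

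The scaffold gene EEF1E1, which encodes the AIMP3 protein, rose from 85.8 and 76.7 TPM to 111.8 and 106.4 TPM (log2 fold change 0.43, SE 0.054, adjusted p from limma 3.0e-05). AIMP1 had 43.7 and 43.5 TPM against 50.1 and 47.6 TPM, and AIMP2 had 82.1 and 79.6 TPM against 86.9 and 88.2 TPM. Their log2 fold changes, 0.16 and 0.11, were close to the median gene and turned to -0.0015 and -0.051 with median-ratio scaling. Without METTL16 KO replicate 1 neither passed (0.13 and 0.12), and AIMP2 also did not pass without METTL16 KO replicate 2 (0.10) or sgNS replicate 2 (0.091). In AIMP2, 29.1% of exon bases lie opposite exons of EIF2AK1, and 18.8% of those of EEF1E1 also belong to a readthrough gene model.

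The mitochondrial synthetases were expressed at lower levels, from 5.93 to 103 TPM over all libraries, against 24.4 to 370 TPM in the cytosolic set. HARS2 rose from 26.2 and 27.0 TPM to 40.6 and 39.0 TPM, with a log2 fold change of 0.58 (SE 0.053, adjusted p from limma 2.1e-06), just short of the 1.5-fold line at 0.585. LARS2 rose from 13.4 and 13.6 TPM to 20.5 and 19.4 TPM (log2 fold change 0.56, SE 0.065). PARS2, for proline, had 12.6 and 12.9 TPM against 17.4 and 16.7 TPM, and IARS2 had 80.6 and 76.0 TPM against 102.8 and 101.3 TPM, with log2 fold changes of 0.42 and 0.38. In these 4 genes the groups were well separated, and each stayed above 0 and past the test with median-ratio scaling and quantile normalization. AARS2, CARS2, EARS2, FARS2, MARS2, RARS2, TARS2 and YARS2 had log2 fold changes from 0.16 to 0.34, all past the adjusted threshold on the deposited scale. RARS2 was the most abundant of these, with 70.7 and 73.7 TPM against 85.3 and 80.9 TPM, followed by EARS2, with 33.9 and 34.9 TPM against 39.8 and 41.7 TPM, and TARS2, with 34.1 and 33.5 TPM against 42.1 and 39.3 TPM. CARS2 had 16.4 and 14.5 TPM against 20.5 and 18.5 TPM. FARS2, MARS2 and YARS2 lay between 11.2 and 19.6 TPM over all libraries. After median-ratio scaling these 8 lay between -0.0015 and 0.18, and none of them then passed. On the deposited scale 5 of them also lost their call without a library: CARS2 (0.27) and RARS2 (0.16) without METTL16 KO replicate 1, MARS2 without METTL16 KO replicate 1 (0.20) or sgNS replicate 2 (0.19), FARS2 in 3 cases (0.15 to 0.26) and YARS2 in 3 cases (0.092 to 0.17).

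SARS2 was the exception with a marked fall. It went from 10.2 and 10.6 TPM to 5.93 and 6.63 TPM (log2 fold change -0.72, SE 0.090, adjusted p from limma 2.7e-05), at percentile 7.32 of all genes. It occupies chr19:38915266-38930763 on the minus strand of GRCh38, where 48.2% of its exon bases also belong to another protein-coding gene model of the same strand, so that reads could be divided between them. NARS2, with 22.8 and 25.5 TPM against 21.7 and 20.9 TPM, fell by 0.18 on the log2 scale, a difference not much larger than that between its sgNS replicates, and it did not pass without sgNS replicate 2 (-0.099), METTL16 KO replicate 1 (-0.21) or METTL16 KO replicate 2 (-0.15). WARS2 had 9.82 and 11.1 TPM against 9.62 and 9.41 TPM and did not pass (log2 fold change -0.13, adjusted p from limma 0.18), but it passed as lower with median-ratio scaling (-0.29, adjusted p 0.0094).

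HARS (chr5:140673035-140691537, minus strand) and HARS2 (chr5:140691430-140699305, plus strand) are neighbours on GRCh38 that are read in opposite directions, and both rose, by 0.40 and 0.58 on the log2 scale. By these GENCODE coordinates the genes overlap by 108 bases, whereas the RefSeq start sites used for the promoter windows lie 85 bases apart without overlap. The stretch from the RefSeq start site of HARS to that of HARS2, both included, is given on the plus strand at chr5:140691370-140691455, because it lies between the RefSeq start sites of the pair.
HARS and HARS2: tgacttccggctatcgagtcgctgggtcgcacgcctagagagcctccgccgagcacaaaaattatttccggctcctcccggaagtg
The overlap in GENCODE makes up 2.90% of the exon bases of HARS2. A larger share of HARS2, 4.09%, also belongs to ZMAT2 on the same strand. HARS shares 7.70% of its exon bases with WDR55 on the opposite strand and 1.24% with DND1 on its own strand. What these overlaps contributed to the values was not tested.

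For 12 amino acids there was 1 cytosolic and 1 mitochondrial gene, and their ratio within a library does not depend on scaling by a single factor. The cytosolic to mitochondrial ratio was lower in METTL16 KO for 9 of 12 amino acids and higher for 3. The median change was -0.15 on the log2 scale, and -0.077 with quantile normalization. For leucine, LARS exceeded LARS2 by 3.96-fold and 4.05-fold in sgNS and by 1.33-fold and 1.39-fold in METTL16 KO, a change of -1.55. For isoleucine the ratio of IARS to IARS2 went from 3.02 and 3.17 to 1.28 and 1.27, a change of -1.28. In both cases the cytosolic enzyme fell while the mitochondrial one rose, which brought the levels of the pair close together. For cysteine it went from 2.03 and 2.31 to 1.30 and 1.49 (change of -0.64), and for tyrosine the change was -0.32. Histidine, alanine, threonine, arginine and methionine had changes from -0.18 to -0.049, of which that of methionine turned to 0.035 with quantile normalization. The reverse held for serine, where SARS to SARS2 went from 8.05 and 7.53 to 17.8 and 15.9 (change of 1.10), and for tryptophan, where WARS to WARS2 went from 2.52 and 2.21 to 4.93 and 4.60 (change of 1.01). For asparagine NARS to NARS2 went from 5.68 and 5.18 to 6.74 and 6.95 (change of 0.33). The libraries of the groups did not overlap in any of the 12 ratios, but an exact permutation test of 2 against 2 libraries cannot give a two-sided p under 0.33, and the ratios are given as a description.

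**Figure D2:**
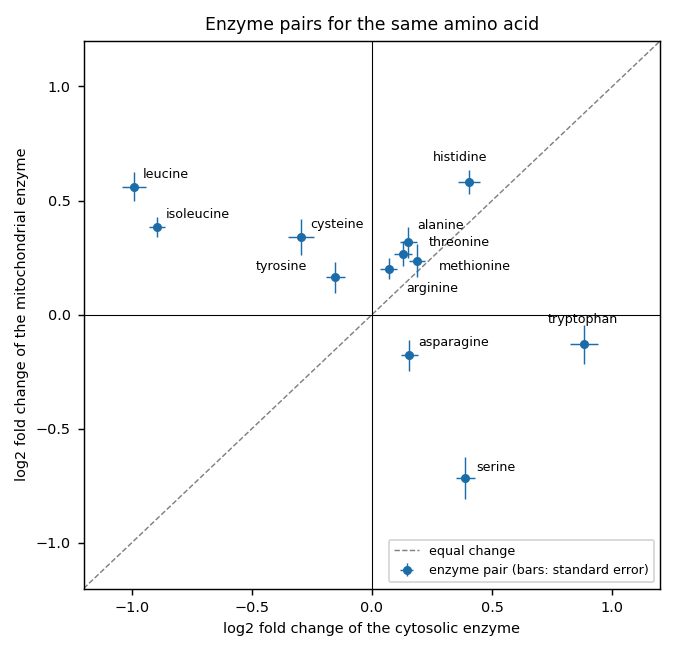
Log2 fold change of the cytosolic enzyme (x axis) against that of the mitochondrial enzyme (y axis) for the 12 amino acids with 1 gene of each kind; bars are limma's standard errors and the dashed line marks equal change. Leucine and isoleucine lie far above the line, at changes of the ratio of -1.55 and -1.28, and serine and tryptophan far below it, at 1.10 and 1.01.

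The summed level of the 20 cytosolic synthetases hardly moved on the deposited scale, at 2613 and 2596 TPM in sgNS and 2619 and 2575 TPM in METTL16 KO. With median-ratio scaling it was lower in METTL16 KO, at 2756 and 2759 against 2466 and 2438 scaled TPM, a log2 ratio of the means of -0.17. On the deposited scale, 9 genes fell by 274 TPM together and 11 had means that were higher by 266 TPM together, among them RARS, which did not pass the test. IARS alone went from 242 ± 1.6 to 130.2 ± 2.2 TPM (SD, n = 2 per group), and KARS from 279 ± 5.2 to 369 ± 0.66 TPM (SD, n = 2 per group). The 15 mitochondrial synthetases rose in sum from 384 and 387 TPM to 469 and 458 TPM, and the 3 scaffold genes from 212 and 200 TPM to 249 and 242 TPM. The log2 ratios of these sums, 0.27 and 0.26, were 0.10 and 0.090 with median-ratio scaling. All 38 members took 0.321% and 0.318% of the total in sgNS and 0.334% and 0.327% in METTL16 KO.

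**Figure D3:**
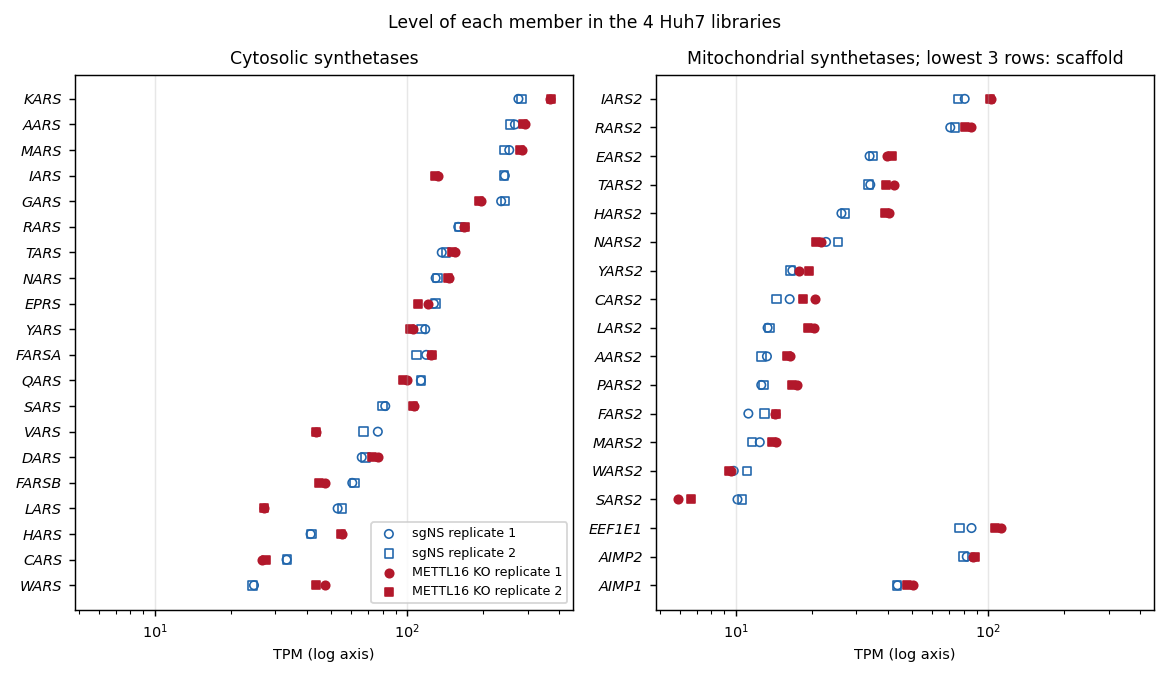
TPM of each member in each of the 4 libraries on a log axis, ordered by the sgNS mean within each group; open blue symbols are sgNS, filled red symbols METTL16 KO, circles replicate 1 and squares replicate 2. IARS, VARS, LARS and SARS2 lie clearly to the left in METTL16 KO, and WARS and HARS2 to the right.

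The cytosolic members that fell most also encode long proteins. By the canonical transcripts of GENCODE release 44, VARS encodes 1264 residues, IARS 1262 and LARS 1176, behind EPRS with 1512, and WARS is the shortest of the cytosolic set at 471. Across the 20 cytosolic genes, Pearson's r between length and log2 fold change was -0.66 and Spearman's rho was -0.60, and without IARS, LARS and VARS they were -0.38 and -0.41. Across the 15 mitochondrial genes they were 0.39 and 0.37, and over 11330 genes tested Spearman's rho was 0.0066. These correlations are across genes of the same 4 libraries and are a description only.

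**Figure D4:**
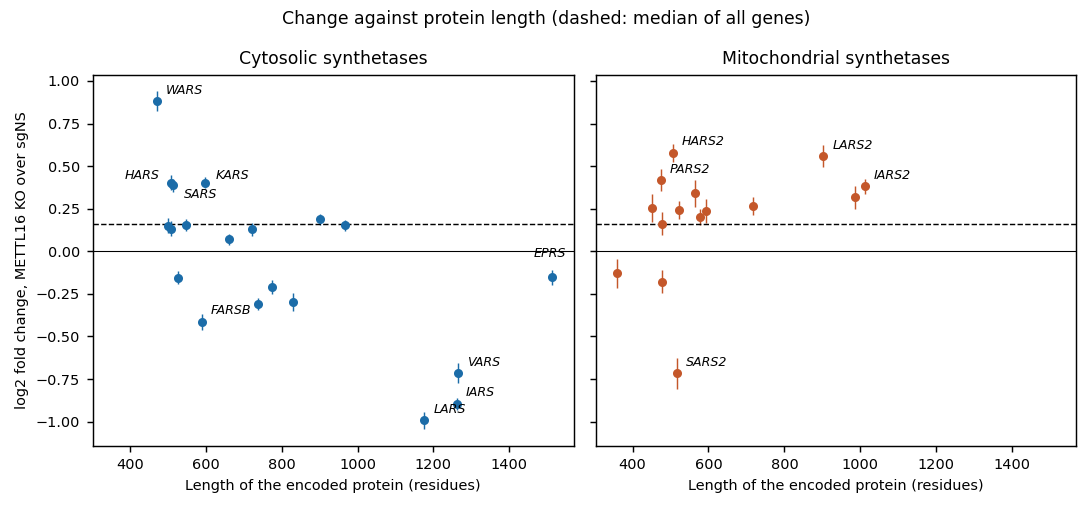
Length of the encoded protein in residues (x axis) against log2 fold change, METTL16 KO over sgNS (y axis), for cytosolic and mitochondrial synthetases; bars are limma's standard errors and the dashed line is the median of all genes (0.16). The 3 cytosolic genes at -0.99, -0.89 and -0.71 encode 1176, 1262 and 1264 residues, while the long mitochondrial proteins of LARS2 and IARS2 lie above the median.

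Related genes were described from 4 lists, 3 of them drawn up around tRNA and its charging and 1 of amino acid response genes. A place on a list does not by itself show that a gene acts on tRNA. Of 16 accessory factors of aminoacylation tested (transamidation, selenocysteine synthesis and proofreading of charged tRNA), 6 fell and 6 rose, against 25.6% and 50.1% of all genes tested. DTD1, which hydrolyses D-aminoacyl-tRNA, fell by 0.53 on the log2 scale, SECISBP2 fell by 0.36 and GATB fell by 0.29, whereas PSTK rose by 0.68, TARSL2 by 0.50 and GATC by 0.49. GATB and GATC are subunits of the same mitochondrial amidotransferase. Of 29 genes of tRNA maturation and export, 8 fell and 16 rose, shares near the 25.6% and 50.1% of all genes tested, and the median of 0.16 was that of all genes. XPOT, the exporter of tRNA from the nucleus, went from 254 and 257 TPM to 69.3 and 70.3 TPM (log2 fold change -1.87). TRNT1, which adds the CCA end to which the synthetases attach the amino acid, fell by 0.72, from 28.7 ± 0.59 to 17.4 ± 2.0 TPM (SD, n = 2 per group). LARP7, also on the list, fell by 0.71. ELAC1 and ELAC2, nucleases of the tRNA 3′ end, rose by 0.98 and 0.59, and RPP40, a subunit of RNase P, by 0.74.

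Of 69 tRNA modification genes tested, 10 fell and 37 rose (22 fell with median-ratio scaling), with a median of 0.24. Of all genes tested, 25.6% were lower and 50.1% higher, and 36.5% were lower with median-ratio scaling. QTRT1, a subunit of the queuosine transglycosylase, went from 35.1 and 35.6 TPM to 17.4 and 17.3 TPM (log2 fold change -1.02, SE 0.055, adjusted p from limma 3.4e-08). PUS7 and TRMT1 fell by 0.85 and 0.79. TRMT61A rose by 1.25, WDR4, the partner of METTL1 in m7G methylation, by 1.04 and TYW5 by 1.02, each from levels of 2.83 to 7.72 TPM in the sgNS libraries. Among 31 amino acid response genes, 11 fell and 14 rose, against 25.6% and 50.1% of all genes tested, with a median of 0.065. ATF4 itself had 613 and 602 TPM against 646 and 664 TPM (log2 fold change 0.11). DDIT3, ATF5 and PPP1R15A rose by 1.26, 1.02 and 0.93, while CTH fell by 1.31, NUPR1 fell by 0.92 and SLC7A11 fell by 0.84.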

How the data were processed

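RNA-seq of 4 Huh7 libraries was analysed, 2 sgNS and 2 METTL16 KO. The authors trimmed reads with Cutadapt, aligned them to GRCh38 by STAR and quantified genes with RSEM; the KAPA kit was for stranded mRNA, although the labels also mention Ribozero. The authors deposited TPM per gene symbol, rounded to 2 decimals. Their methods speak of RPKM, but every column adds up to 1000000. Replicates are not pooled.

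Log2(TPM + 0.1) of genes with a mean of at least 1 TPM was fitted in limma 3.58.1 (R 4.3.3; lmFit, eBayes with trend, no block). A member was called at an adjusted p under 0.05 over all 11971 genes. The fit was tested on simulated data. Members, lists and motifs were chosen with earlier results of these data known. Members past 1.5-fold were given in full, all others by value or range, and in related lists up to 3 called genes per direction. Of the symbols, 39 of 39 were matched to GENCODE release 44 (GRCh38) for positions, lengths and exon overlaps. Promoter windows came from RefSeq (GRCh38.p14); those of the scaffold genes were searched but not printed. Alternatives were pseudocounts of 1 and 0.01, other filters, median-ratio scaling, quantile normalization, a replicate block, no trend and each library left out. Python 3.11.15, numpy 2.4.6, pandas 2.3.3, scipy 1.17.1 and matplotlib 3.10.9 were used.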

Additional observations from a re-analysis of the deposited data

How the results depend on the processing

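Among the 38 members, 17 (8 lower and 9 higher) kept their call under each of 12 alternatives. LARS ranged from -1.16 to -0.96, IARS from -1.06 to -0.88, VARS from -0.88 to -0.62, SARS2 from -0.90 to -0.64 and WARS from 0.72 to 0.95. METTL16 stayed lower and past the test, from -0.68 to -0.45. The weak rises depended on scaling. Median-ratio scaling cut the higher calls from 10 to 4 in the cytosolic, from 12 to 4 in the mitochondrial and from 3 to 1 in the scaffold group, and quantile normalization to 5, 4 and 1. The medians of these groups, 0.10, 0.25 and 0.16 as reported, became -0.066, 0.088 and -0.0015 with the former and 0.013, 0.092 and 0.031 with the latter, and the share of higher genes among all calls went from 66.2% to 49.9% and 51.1%. Median-ratio scaling turned AARS to -0.014, DARS to -0.014, FARSA to -0.031, NARS to -0.011, RARS to -0.096, TARS to -0.036, YARS2 to -0.0015, AIMP1 to -0.0015 and AIMP2 to -0.051. Quantile normalization turned RARS to -0.0020, YARS2 to -0.032 and AIMP2 to -0.029. Under median-ratio scaling 22 tRNA modification genes were lower against 10, beside 36.5% of all genes against 25.6%. The log2 ratios of the summed levels went from -0.0043 to -0.17 (cytosolic), from 0.27 to 0.10 (mitochondrial), from 0.26 to 0.090 (scaffold) and from 0.049 to -0.12 (all members) with median-ratio scaling, an alternative chosen after seeing the data. The median change of the cytosolic to mitochondrial ratio was -0.077 with quantile normalization against -0.15. A common factor per library cannot move this ratio, and the cause of its shift was not tested. The lower mitochondrial calls were 1 in place of 2 with all genes above 0 in at least 1 library, where NARS2, FARSA, FARS2 and YARS2 lost their calls, and with limma without trend, where NARS2, EPRS, DARS, FARSA, TARS, YARS2 and AIMP2 did and the higher cytosolic calls went from 10 to 7. The cause was not tested.

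With libraries left out in turn, the lower mitochondrial calls ranged from 1 to 2, the higher scaffold calls from 1 to 3 (1 without METTL16 KO replicate 1) and the mitochondrial rises past 1.5-fold from 0 to 2 (HARS2 and LARS2 without METTL16 KO replicate 2, HARS2 without sgNS replicate 2). Cytosolic calls were 7 to 9 lower and 7 to 10 higher. With the replicate number as a block, all 38 members had the same call, and METTL16 had -0.50. The deviations of same-numbered libraries had a correlation of -0.045 over 11971 genes, and 2 pairs cannot show whether the numbers pair the samples. Depth could not be weighed, because TPM keep no counts.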
